A study of Mus musculus with 50 samples.

Results

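The interferon-inducible GTPases described here are 10 genes of 2 families, the guanylate-binding proteins Gbp2, Gbp3, Gbp4, Gbp5, Gbp7, Gbp8 and Gbp9 and the immunity-related GTPases Irgm1, Igtp (also called Irgm3) and Iigp1. They were chosen by symbol, with earlier results of these data known, and each symbol matched 1 of the 53700 genes counted. All 10 passed the filter on low counts that left 16696 genes for testing. Microglia, the resident macrophages of the brain, had been sorted from the hippocampus of 50 male C57BL/6J mice by a gate for CD45int CD11b+ events, and their poly-A RNA gave 1 library per mouse. The study asked how early-life stress (ELS) alters microglia in young mice and their reaction to a later immune challenge. ELS was imposed by limited bedding and nesting material for the dam and pups from P2 to P9, and control (CTR) nests had standard material. Mice were taken at P9 without further treatment, as P9-CTR (n = 12) and P9-ELS (n = 13), or at P200 after an intraperitoneal injection. The series' own design text counts 12 P9-ELS mice, and all 13 so labelled were used. The P200 mice received PBS, as CTR-PBS (n = 7) and ELS-PBS (n = 6), or 1 mg/kg lipopolysaccharide (LPS), a bacterial cell wall component, 3 h before they were killed, as CTR-LPS (n = 7) and ELS-LPS (n = 5).

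Guanylate-binding proteins and immunity-related GTPases are made in large amounts when a cell receives interferon. They assemble on the membranes of vacuoles that hold microbes, on bacteria and on viral replication sites, and help to break these membranes open and to set off inflammasomes. Irgm1 and Igtp are regulatory members that sit on the cell's own membranes and hold the effector GTPases inactive there, whereas Iigp1 is an effector that coats the vacuole. Transcription of these genes is driven mainly through gamma-activated sites (GAS) and interferon-stimulated response elements (ISRE), the latter bound by factors such as IRF1. In microglia they belong to the interferon-response state seen with infection, ageing and neurodegeneration.

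Values are given as CPM, read counts scaled to the library size after TMM normalisation, and a level per kilobase divides CPM by the exonic length of the gene's canonical transcript. A gene was called changed with an adjusted p under 0.05 in edgeR's quasi-likelihood test and a change of more than 1 on the log2 scale in either direction. The total count per mouse was 5152838 to 42231258, with a median of 19960409. In the labels a mouse has a number, a point and a second digit. Libraries of P9-ELS mice 2 and 3 of number 19 and of CTR-PBS mouse 1.1 held only 15731, 12482 and 12854 genes with a count above 0, where the series reached 21100, and the values they moved most are also given without them. The 12 microglia markers summed to between 37180 and 90320 CPM in every mouse. The 8 neutrophil markers summed to at most 11.8 CPM and the 7 T and NK cell markers to at most 0.506 CPM, and Ly6g, Retnlg, Cd8a, Ncr1 and Gzma had no count in any of the 50 mice. Border-associated macrophage markers summed to 476 to 921 CPM at P9 and to 1.87 to 11.9 CPM at P200. In RNA from a sorted population, fewer cells of one type and less RNA per cell cannot be told apart.

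Most of the genes lie in clusters (GRCm39, GENCODE annotation of the same build). Gbp5 (chr3:142199739-142228105), Gbp7 (chr3:142236044-142255910), Gbp3 (chr3:142265731-142278979) and Gbp2 (chr3:142326349-142343779) lie in that order on the plus strand within 144041 bases. Gbp2b (chr3:142300602-142324940), a family gene outside the members described here, lies between Gbp3 and Gbp2 on the same strand. Gbp8 (chr5:105162016-105287452), Gbp9 (chr5:105224332-105287452) and Gbp4 (chr5:105263633-105287609) lie on the minus strand and overlap each other in the annotation, so reads of these 3 similar genes may have been divided or dropped in the counting. Irgm1 (chr11:48752795-48763164, minus strand) and Igtp (chr11:58089840-58098417, plus strand) lie apart on chromosome 11. Igtp overlaps Irgm2 on the same strand. The strand setting of the counting is not given in the sources used here.

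The promoters are shown because the members that share an inducer did not share an LPS response. For 9 members the 300 bases from 250 before to 50 after the start of the canonical transcript were searched on both strands for the GAS letters TTCNNNGAA, the ISRE core GAAANNGAA and the kB motif. GAS was found in 7.33% of the 12737 promoters of tested protein-coding genes, the ISRE core in 7.81% and the kB motif in 9.93%. Gbp5 held 1 GAS match at base -84 and ISRE core matches at bases -107 and -3. Gbp7 held GAS matches at -53 and -34 and an ISRE core match from base 2 of the transcript. Irgm1 held 2 ISRE core matches, at -30 and -24, that overlap by 3 bases. Gbp2, Gbp4 and Gbp9 each held 1 ISRE core match, in Gbp2 18 bases into the transcript, in Gbp4 at -225 and in Gbp9 at -151. Gbp3, Gbp8 and Igtp held none of these letters, and none of the 9 had a kB match. The promoter of Iigp1 was not analysed here. The 160 bases from 150 before the start to 10 bases into the transcript are given 5′ to 3′ on the gene's strand for 3 LPS-responsive genes with matches (Gbp5, Gbp7, Irgm1), 1 without (Gbp3), and for Igtp, with GAS and ISRE core matches in capitals.
Gbp5: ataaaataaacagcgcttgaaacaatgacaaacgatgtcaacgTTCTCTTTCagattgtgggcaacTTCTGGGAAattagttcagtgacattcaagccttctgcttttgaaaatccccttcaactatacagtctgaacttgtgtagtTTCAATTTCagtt
Gbp7: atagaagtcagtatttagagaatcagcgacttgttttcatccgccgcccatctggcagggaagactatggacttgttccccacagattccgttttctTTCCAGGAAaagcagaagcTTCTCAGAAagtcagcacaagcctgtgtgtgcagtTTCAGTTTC
Irgm1: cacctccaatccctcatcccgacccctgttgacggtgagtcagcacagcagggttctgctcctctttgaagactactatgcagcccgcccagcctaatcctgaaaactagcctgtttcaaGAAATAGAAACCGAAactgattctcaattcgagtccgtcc
Gbp3: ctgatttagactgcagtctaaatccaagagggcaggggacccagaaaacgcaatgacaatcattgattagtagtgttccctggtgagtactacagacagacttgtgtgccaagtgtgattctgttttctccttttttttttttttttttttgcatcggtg
Igtp: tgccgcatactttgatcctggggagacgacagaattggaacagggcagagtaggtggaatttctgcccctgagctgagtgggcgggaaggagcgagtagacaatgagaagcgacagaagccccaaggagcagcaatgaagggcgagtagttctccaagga
The windows are chr3:142202384-142202543 (plus) for Gbp5, chr3:142235894-142236053 (plus) for Gbp7, chr11:48762238-48762397 (minus) for Irgm1, chr3:142265963-142266122 (plus) for Gbp3 and chr11:58089969-58090128 (plus) for Igtp. The matches describe letters in these windows and were not tested against binding.

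Per kilobase, the regulatory genes Igtp and Irgm1 made up most of the transcript level summed over the 10 members in unchallenged P200 microglia. Irgm2, a regulatory gene outside the 10, is not in this sum. Its mean in CTR-PBS mice was 173.4 CPM, beside 149.5 CPM for Igtp and 61.8 CPM for Irgm1. In CTR-PBS mice Igtp was at 65.4 ± 9.26 CPM per kilobase (SD, n = 7) and Irgm1 at 29.6 ± 10.8, which were 52.9% and 23.9% of the sum over the 10 genes. Gbp7 (9.43 ± 3.27), Gbp3 (7.84 ± 2.88), Gbp9 (4.96 ± 1.93), Gbp2 (3.5 ± 1.76) and Gbp5 (2.57 ± 1.45) followed in that order of level per kilobase. Igtp lay above Irgm1 in each of the 7 mice without overlap of their ranges, and the ranges of every later pair of neighbours in this order overlapped. At P9 the order was another one, and Gbp7 stood beside Irgm1, with 19.8 ± 5.90 against 18.7 ± 3.63 CPM per kilobase in P9-CTR mice (SD, n = 12). After LPS the sum reached 263 ± 61.1 CPM per kilobase in CTR-LPS mice (SD, n = 7), against 124 ± 17.7 in CTR-PBS mice. The sum was 264 ± 85.6 in ELS-LPS mice (n = 5) and 108 ± 9.70 in ELS-PBS mice (n = 6). The lowest LPS mouse of each condition (167 in CTR and 170 in ELS) lay above the highest PBS mouse (155 and 126). The share of Gbp5 in the group means went from 2.08% to 17.5% in CTR and from 1.84% to 18.17% in ELS, while the share of Igtp went from 52.9% to 26.4% and from 52.7% to 28.9%.

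**Figure D1:**
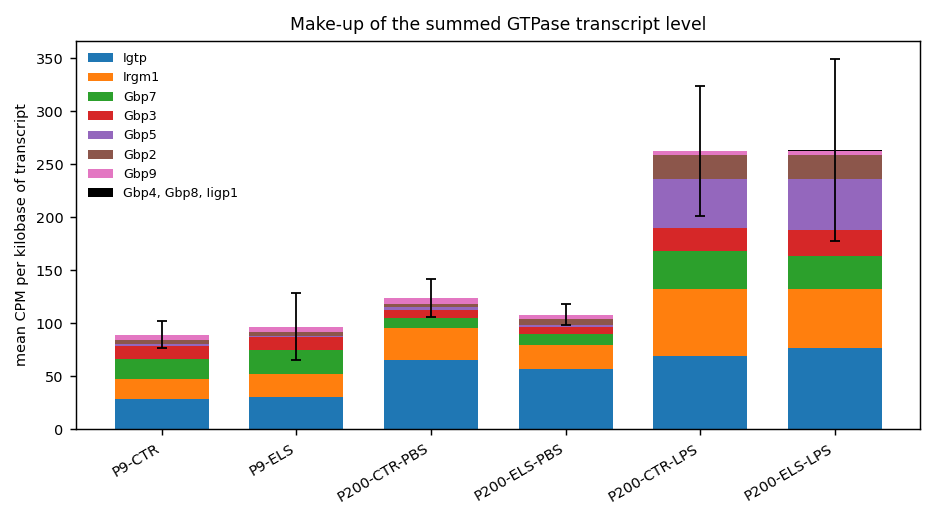
Mean CPM per kilobase of transcript of each member, stacked by group, with the SD over mice of the sum as the error bar (n = 12, 13, 7, 6, 7 and 5 mice from left to right). The summed level was 124 in CTR-PBS and 263 in CTR-LPS mice, and the Gbp5 segment is hardly visible without LPS.

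LPS raised the same 5 of the 10 genes in CTR and in ELS mice, namely Gbp5, Gbp2, Gbp7, Gbp3 and Irgm1. Of all 16696 genes tested, 6.02% were called higher with LPS in CTR and 4.69% in ELS. The median log2 fold change over the 10 members was 1.27 in CTR and 1.44 in ELS, beside 0.00 and -0.04 over all genes tested. The members were chosen with earlier results of these data known, so their counts and medians beside all genes are a description. No member was called lower, where 3.6% of all genes were in CTR and 3.17% in ELS. Every LPS mouse lay above every PBS mouse for 2 of the 10 members in CTR and for 5 in ELS, beside 4.92% and 5.65% of all genes. All 4 members in the chromosome 3 cluster were among the 5, and none of the 3 chromosome 5 members was. Of these 3, Gbp4 and Gbp8 were close to 0 counts and only Gbp9 was well detected. Gbp2b, a family gene of the chromosome 3 cluster outside the 10, was at most 0.131 CPM in any LPS mouse. Mice that share the number before the point in their label, which the labels do not define and which was read as the nest, could also be set side by side. The numbers were not taken to pair the mice, so this is a description and no separate test. Each of the 10 numbers at P200 held PBS and LPS mice, and the difference in mean log2 CPM was positive in 10 of 10 numbers for each of the 5 genes, with medians of 3.78 for Gbp5, 1.93 for Gbp2, 1.74 for Gbp3, 1.55 for Gbp7 and 1.1 for Irgm1. Astrocyte markers summed to 301.4 to 503.2 CPM in PBS and 422.9 to 618.3 CPM in LPS mice, with 0 of 6 called in CTR and 2 in ELS, and microglia markers had medians of 87150 and 75200 CPM in CTR-PBS and CTR-LPS mice. In LPS mice the neutrophil markers summed to at most 9.99 CPM and the 5 monocyte markers to between 0.878 and 8.35 CPM, beside 0.712 to 11.0 CPM in PBS mice. With LPS, 1 of 7 border-associated macrophage and 1 of 6 endothelial markers tested were called higher in CTR, 1 of 3 monocyte markers was called higher in ELS, and 1 of 12 microglia markers was called lower in each condition. The part of other cells in the LPS differences was not tested.

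Gbp5, which promotes assembly of the NLRP3 inflammasome, showed the largest fold change with LPS of the 7 well detected members. In CTR-PBS mice it was between 0 (mouse 1.1) and 14.1 CPM with a median of 9.097, and in CTR-LPS mice between 32.6 and 269.8 CPM with a median of 167.8. In ELS-PBS mice it was between 0.326 and 9.57 CPM with a median of 7.10, and the 5 ELS-LPS mice had 38.5, 61.6, 177.5, 205.2 and 279.1 CPM. Every LPS mouse was above every PBS mouse of its condition, yet the LPS mice themselves spread over a wide range. Gbp5 was 17.9-fold higher in CTR (log2 fold change 4.16 ± 0.63 SE, adjusted p = 1.3e-06) and 24.0-fold higher in ELS (4.59 ± 0.71, adjusted p = 2.3e-06). Without the 3 libraries with few genes the fold in CTR was 15.4 (adjusted p = 5.1e-08), and the log2 fold change was between 3.74 and 4.90 over the other settings run.

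Gbp2, which recruits other guanylate-binding proteins and helps to open bacterial vacuoles, followed the same mice. It was between 0 and 13.5 CPM (median 8.68) in CTR-PBS and between 12.9 and 110.1 CPM (median 54.2) in CTR-LPS mice. In ELS-PBS mice it was between 8.34 and 17.4 CPM (median 13.1), and the ELS-LPS mice had 21.6, 23.5, 58.14, 87.5 and 103.0 CPM. The groups did not overlap in ELS, whereas in CTR the lowest LPS mouse (mouse 5.3) lay below the highest PBS mouse. Gbp2 rose 6.38-fold in CTR (log2 fold change 2.67 ± 0.50, adjusted p = 6.2e-05) and 4.61-fold in ELS (2.21 ± 0.54, adjusted p = 0.0033). Without the 3 libraries with few genes, among them the CTR-PBS mouse at 0, the fold in CTR was 5.47 (adjusted p = 7e-07). Over the other settings run, the log2 fold change in CTR was between 2.45 and 3.45.

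Gbp7, known for a role in the assembly of the phagocyte NADPH oxidase, had the highest mean CPM of the guanylate-binding proteins in each group. Per kilobase, Gbp5 had the higher mean after LPS, with 46.1 against 36.1 in CTR-LPS and 47.9 against 31.4 in ELS-LPS mice. Gbp7 was between 37.0 and 92.5 CPM (median 51.11) in CTR-PBS and between 71.2 and 304.6 CPM (median 202.8) in CTR-LPS mice. It was between 36.4 and 86.3 CPM (median 59.6) in ELS-PBS mice, and the ELS-LPS mice had 112.1, 129.5, 205.8, 214.2 and 225.3 CPM. Again mouse 5.3 was the CTR-LPS mouse that fell within the PBS range. The increase was 3.83-fold in CTR (log2 fold change 1.94 ± 0.36, adjusted p = 5.6e-05) and 2.99-fold in ELS (1.58 ± 0.40, adjusted p = 0.0040).

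Gbp3 rose in both conditions as well. It was between 13.6 and 38.5 CPM (median 19.5) in CTR-PBS and between 39.3 and 77.5 CPM (median 61.4) in CTR-LPS mice, so that the groups met without overlapping. In ELS it was between 11.9 and 21.4 CPM (median 17.6) with PBS, and 34.0, 59.5, 63.0, 66.3 and 115.8 CPM with LPS. The highest CTR-PBS value came from mouse 1.1, in which Gbp2 and Gbp5 had no count. The fold was 2.75 in CTR (log2 fold change 1.46 ± 0.21, adjusted p = 6.5e-07) and 3.83 in ELS (1.94 ± 0.24, adjusted p = 1.7e-08), and 3.16 in CTR without the 3 libraries with few genes (adjusted p = 6.3e-09).

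Irgm1, the regulatory GTPase that protects the cell's own membranes and lysosomes, was the only immunity-related GTPase of the 3 that was called. It was between 25.6 and 100.6 CPM (median 63.6) in CTR-PBS and between 93.3 and 159.9 CPM (median 131.4) in CTR-LPS mice. In ELS it was between 38.2 and 58.04 CPM (median 47.0) with PBS, and 67.5, 90.7, 113.1, 141.4 and 170.3 CPM with LPS. The groups did not overlap in ELS and overlapped in CTR only through PBS mouse 1.1. The fold was 2.12 in CTR (log2 fold change 1.09 ± 0.20, adjusted p = 3.8e-05) and 2.46 in ELS (1.3 ± 0.22, adjusted p = 1.7e-05). Without the 3 libraries with few genes the fold in CTR was 2.37 (adjusted p = 1.2e-06). The call in CTR sits close to the fold threshold, and without the PBS mouse of number 15, the lowest of its group, the log2 fold change was 0.95 with an adjusted p of 0.00016.

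**Figure D2:**
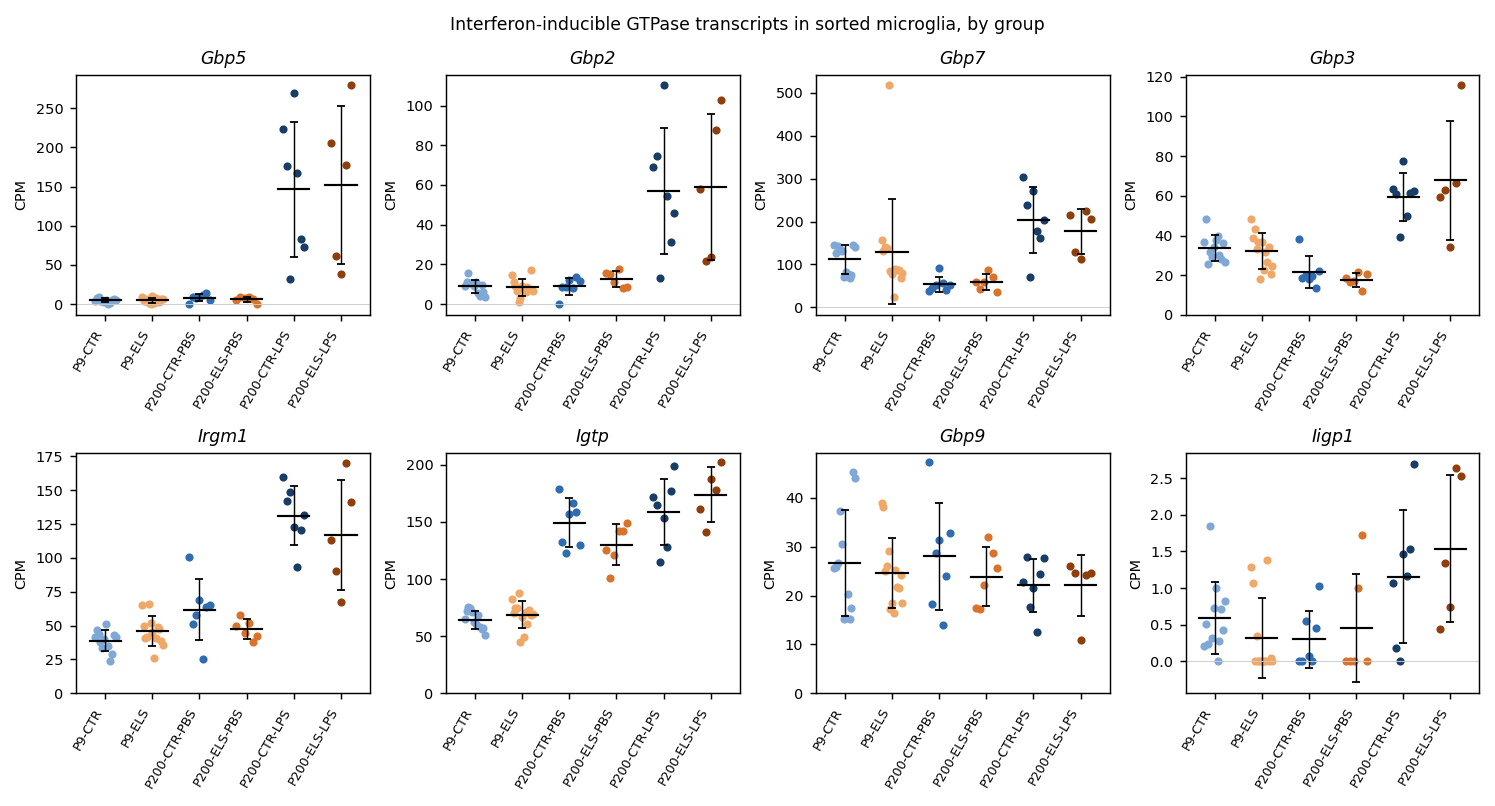
CPM of 8 members in each of the 50 mice (points), with the group mean (bar) and SD (whisker). The Gbp5, Gbp2, Gbp7, Gbp3 and Irgm1 means stand higher in both LPS groups than in the PBS groups, Igtp stands higher at P200 than at P9 instead, and Iigp1 stays at or under 2.70 CPM in every mouse.

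Igtp and Gbp9 were well detected but not called with LPS. Igtp was between 123.0 and 178.7 CPM (median 157.3) in CTR-PBS and between 114.8 and 198.8 CPM (median 164.8) in CTR-LPS mice, a log2 difference of 0.08 ± 0.13 (adjusted p = 0.75). In ELS it was between 101.2 and 148.8 CPM (median 133.5) with PBS and at 141.1, 161.1, 177.6, 187.4 and 202.6 CPM with LPS, a log2 difference of 0.42 ± 0.14 (adjusted p = 0.046) that passed the p but not the fold threshold, with overlapping groups. The LPS interval in CTR (log2 fold change ± 1.96 SE) ran from -0.17 to 0.33. Gbp9 had a median of 28.7 CPM in CTR-PBS and 22.8 CPM in CTR-LPS mice, and of 23.8 and 24.6 CPM in ELS. Its log2 differences were -0.35 ± 0.25 (adjusted p = 0.42) and -0.11 ± 0.29 (adjusted p = 0.87). Every Gbp9 comparison overlapped between PBS and LPS mice.

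The effector Iigp1 and the genes Gbp4 and Gbp8 were close to the detection limit. Gbp4 and Iigp1 had no count in 17 of the 50 mice each and Gbp8 in 28, and over all mice they summed to 459, 641 and 445 counts. Iigp1 was at 0 in 3 of 7 CTR-PBS and 4 of 6 ELS-PBS mice and in 1 of 7 CTR-LPS and 0 of 5 ELS-LPS mice. Its medians were 0.0709 and 0 CPM with PBS and 1.17 and 1.35 CPM with LPS, in CTR and ELS. The adjusted p of Iigp1 was 0.35 in CTR and 0.46 in ELS, with overlapping groups in both, and limma voom with the number in the mouse label as a random effect called it higher in ELS (adjusted p = 0.011). Within numbers the LPS mice were higher for Iigp1 in 9 of 10. Gbp8 had no count in any of the 5 ELS-LPS mice, which allows up to 0.0334 CPM over the 89906146 counts of the group (3 counts, counting error only), and it was at most 0.285 CPM in ELS-PBS mice. In CTR-LPS mice Gbp8 counts came from mouse 8.2 alone (0.619 CPM), and without that mouse Gbp8 was called lower with LPS in CTR (adjusted p = 0.040, against 0.44 with it). Gbp4 was at most 1.13 CPM in every P200 mouse. No fold is given for Gbp4, Gbp8 and Iigp1, which lie close to 0.

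The LPS response of the 5 called genes did not differ detectably between ELS and CTR mice. For the difference of the LPS response, 0 of the 10 members were called by edgeR and 0 had an unadjusted p under 0.05, and DESeq2 and limma called 0 members as well. Over all genes edgeR called 0 (0%) and 980 had an unadjusted p under 0.05, while DESeq2 called 11 and limma 0. The difference in log2 fold change, ELS minus CTR, was 0.42 ± 0.85 for Gbp5, -0.47 ± 0.71 for Gbp2, -0.36 ± 0.53 for Gbp7, 0.48 ± 0.32 for Gbp3, 0.21 ± 0.29 for Irgm1 and 0.24 ± 0.38 for Gbp9. The intervals of ± 1.96 SE ran from -1.24 to 2.08 for Gbp5 and from -0.37 to 0.79 for Irgm1, so that a difference of several fold in Gbp5 lies inside its interval. Igtp had the lowest unadjusted p of the 7 well detected genes for this difference (log2 difference 0.34 ± 0.19, p = 0.088, adjusted p = 0.89). CTR-PBS mouse 1.1, one of the 3 libraries with few genes, enters all these differences. Without the 3 libraries the LPS log2 fold change in CTR was 3.94 for Gbp5, 2.45 for Gbp2, 1.87 for Gbp7, 1.66 for Gbp3 and 1.24 for Irgm1. The differences move with these values, and 0 genes were called for the difference in that setting.

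Early-life stress alone left no member called at either age. At P9, 0 of 10 members were called by edgeR, with 0 at an unadjusted p under 0.05 (0% of all genes called by edgeR, 0 by DESeq2 and 0 by limma, and 914 genes at an unadjusted p under 0.05). In PBS mice 0 of 10 were called, with 0 at an unadjusted p under 0.05. There 26 genes (0.156%) were called by edgeR, 153 by DESeq2 and 0 by limma, and 1622 had an unadjusted p under 0.05. In LPS mice the same counts were 0 and 0, with 0% of all genes called by edgeR, 798 genes at an unadjusted p under 0.05 and 2 called by DESeq2 and 0 by limma. DESeq2 and limma called 0 members in each of these 3 comparisons. Irgm1 in PBS mice came nearest among the well detected members, with a mean of 47.4 ± 7.23 CPM in ELS (SD, n = 6) and 61.8 ± 22.4 CPM in CTR (n = 7) and a log2 difference of -0.38 ± 0.20 (adjusted p = 0.57). Its interval ran from -0.78 to 0.02, the highest CTR value was that of mouse 1.1, and without the 3 libraries with few genes the log2 difference was -0.22 (adjusted p = 0.80). For Gbp5 in LPS mice the means were 152.4 ± 100.8 CPM in ELS (n = 5) and 146.6 ± 86.4 CPM in CTR (n = 7), with an interval of the log2 difference from -1.13 to 1.24. Over the 7 well detected members the log2 differences, ELS minus CTR, ran from -0.11 to 0.24 at P9, from -0.38 to 0.51 in PBS mice and from -0.20 to 0.19 in LPS mice. The upper end in PBS mice was that of Gbp2 and rests in part on CTR-PBS mouse 1.1, which had no count of this gene.

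**Figure D3:**
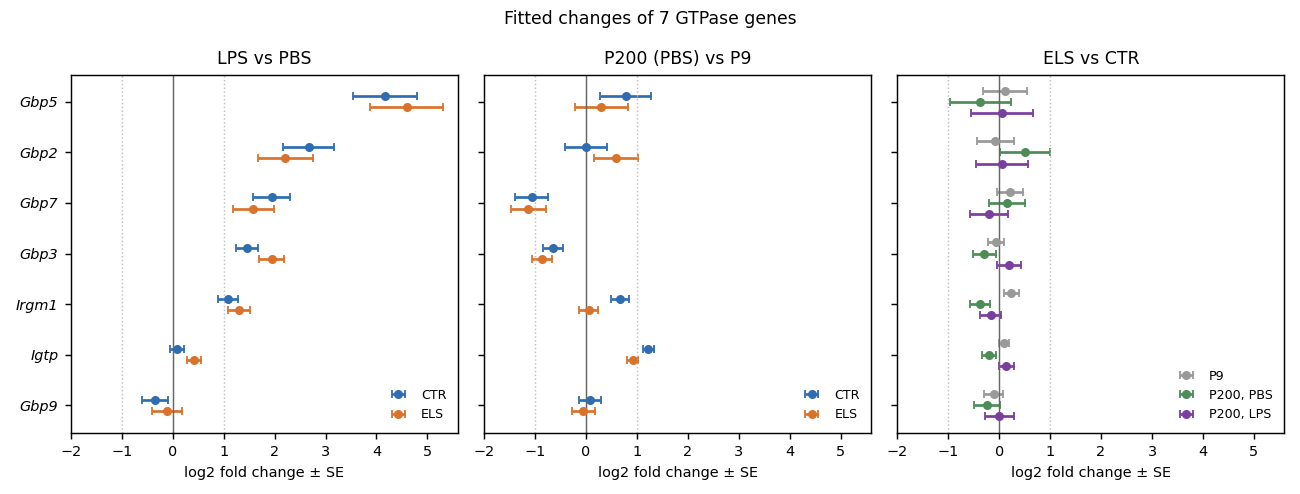
Fitted log2 fold change with its SE for 7 members in the LPS, age and ELS comparisons, with dotted lines at -1 and 1. Gbp5 reaches 4.16 and 4.59 with LPS, Gbp7 lies below and Igtp above 0 between P9 and P200, and no ELS comparison passes a threshold.

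Among the LPS mice, several members moved together from mouse to mouse. CTR mouse 8.2 had the highest Gbp5 (269.8 CPM), Gbp2 (110.1 CPM) and Gbp3 (77.5 CPM) of its group, and CTR mouse 5.3 the lowest values of all 4 members in the chromosome 3 cluster. The ELS mouse of number 20 had the highest Gbp5, Gbp2 and Gbp3 of its group, and the ELS mouse of number 11 the lowest Gbp5, Gbp3 and Gbp7. As a description over the 12 LPS mice, each taken relative to its group mean in log2 CPM, Pearson's r was 0.95 between Gbp5 and Gbp2, 0.89 between Gbp5 and Gbp7 and 0.75 between Gbp5 and Gbp3. It was 0.44 between Gbp5 and Irgm1, 0.39 between Gbp5 and Gbp9 and 0.28 between Gbp5 and Igtp. The value with Igtp rests in part on CTR mouse 5.3, the lowest of its group in Gbp5 and in Igtp (114.8 CPM). In Irgm1 that mouse lay above the group median, so it works against the value with Irgm1. The sign of the value with Igtp depends on that mouse. Pairs that reach outside the chromosome 3 cluster were as high as some within it, with 0.68 between Gbp3 and Gbp9 and 0.67 between Gbp9 and Irgm1, beside 0.67 between Gbp3 and Gbp7. Over the 13 PBS mice r was 0.87 between Gbp5 and Gbp2 and -0.78 between Gbp5 and Gbp3, and 0.44 and -0.42 without CTR-PBS mouse 1.1. Over the 25 P9 mice r was 0.59 between Gbp5 and Gbp2, with and without P9-ELS mouse 2 of number 19. Between Gbp2 and Gbp7 it was 0.92 over the LPS mice and -0.40 over the P9 mice, and the P9 value turned to 0.16 without that mouse. Both mice were left out after the data were seen. These values share the libraries and their depth. In mouse 5.3 the low cluster genes stood beside an Irgm1 of 149.0 CPM, above the group median, so that this mouse was low in some of the 5 genes and not in others.

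**Figure D4:**
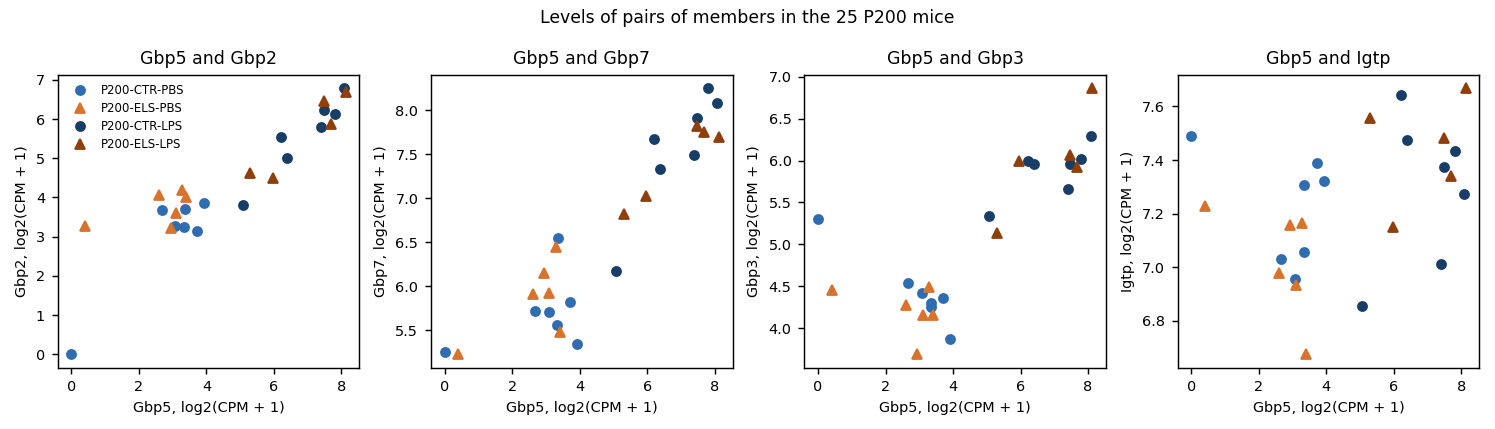
Gbp5 against Gbp2, Gbp7, Gbp3 and Igtp in log2(CPM + 1), with 1 point per P200 mouse (circles CTR, triangles ELS). LPS mice with more Gbp5 have more Gbp2 and Gbp7, and the Igtp levels of PBS and LPS mice overlap; the point at 0 for Gbp5 is CTR-PBS mouse 1.1.

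Between P9 and P200, Igtp was called higher in CTR and Gbp7 lower in both conditions, while Gbp2, Gbp9, Gbp5, Gbp4, Gbp8 and Iigp1 did not pass the test. Without the 3 libraries with few genes, Gbp5 was called higher at P200 in CTR (log2 fold change 1.0 ± 0.41, adjusted p = 0.040). In CTR, 1 of 10 members was called higher and 1 lower at P200, where 7.98% and 18.5% of all genes were, and in ELS 0 were called higher and 1 lower, where 8.68% and 17.5% were. These counts are near the shares of all genes. Igtp was between 50.9 and 75.8 CPM (median 63.5) in P9-CTR and between 123.0 and 178.7 CPM in CTR-PBS mice, 2.32-fold higher (log2 fold change 1.22 ± 0.11, adjusted p = 5.2e-13). In ELS it went from between 44.6 and 87.9 CPM (median 70.3) to between 101.2 and 148.8 CPM, a log2 fold change of 0.92 ± 0.11 (adjusted p = 3.7e-09) just under the fold threshold. The ages did not overlap in either condition. The difference between these age changes was -0.30 ± 0.16 (adjusted p = 0.54).

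Gbp7 was lower at P200 by a log2 fold change of -1.07 ± 0.32 in CTR and -1.13 ± 0.34 in ELS (adjusted p = 0.0060 in both). These tests take mice as independent, while Gbp7 at P9 differed between the numbers in the mouse labels, as described below. The SE and p of Gbp7 may therefore be too small. It was between 67.8 and 146.0 CPM (median 128.8) in P9-CTR and between 25.1 and 517.4 CPM (median 88.1) in P9-ELS mice. The top value came from P9-ELS mouse 2 of number 19, and without this mouse the log2 fold change in ELS was -0.71 with an adjusted p of 0.023. Without the 3 libraries with few genes the change in CTR was -1.0 (adjusted p = 0.0016) and that in ELS -0.73 (adjusted p = 0.020), both short of the fold threshold. In limma voom with the number in the mouse label as a random effect the change in ELS was -0.84 (adjusted p = 0.041). That fit used the same correlation within numbers, 0.078, for every gene, so it does not account for the pattern of Gbp7 itself. Gbp3 passed the p threshold alone, with log2 fold changes in CTR of -0.65 ± 0.19 (adjusted p = 0.0052) and in ELS of -0.86 ± 0.20 (adjusted p = 0.00056) and with medians of 33.2 and 33.3 CPM at P9 and 19.5 and 17.6 CPM at P200. Irgm1 passed the p threshold alone in CTR (0.67 ± 0.17, adjusted p = 0.0013, and 0.51 ± 0.16 without the 3 libraries with few genes, adjusted p = 0.0090) and did not in ELS (0.05 ± 0.18, adjusted p = 0.86). The difference between these changes of Irgm1 was -0.62 ± 0.25 (unadjusted p = 0.017, adjusted p = 0.38), so it was not shown to differ, and it was -0.39 ± 0.24 without the 3 libraries with few genes. For the difference of the age change, 0 of 10 members were called by edgeR, DESeq2 and limma, 1 had an unadjusted p under 0.05, and 0.0299% of all genes were called. The sorted cells also differed between ages in other markers: all 7 border-associated macrophage markers were called lower at P200 in CTR and 5 of 7 in ELS. In both conditions 5 of 6 astrocyte markers were called lower and 1 higher, and 4 of 6 endothelial markers lower. Of the others, 3 of 6 oligodendrocyte lineage markers were lower in CTR and 1 in ELS with 1 higher in each, 2 of 3 monocyte markers tested were lower and 1 higher in both, and 2 of 12 microglia markers were higher in CTR and 1 in ELS. The neuron markers, of which 6 of 6 in CTR and 5 in ELS were called lower, went from 69.5 to 186.5 CPM in P9-CTR mice to 2.49 to 11.9 CPM in CTR-PBS mice. The preparation differed with age as well, since a Percoll gradient removed myelin from P200 tissue and was not used at P9. The P200 mice in this comparison had also been injected with PBS, and the P9 mice had not. The part of these cells, of the preparation and of the injection in the age differences of the members was not tested.

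The P9 levels of Gbp7 differed between the numbers before the point in the mouse labels. This pattern was noticed in the values and was not tested. In P9-CTR, Gbp7 was between 126.8 and 146.0 CPM in the 2 mice of number 15, between 130.9 and 142.7 in the 3 mice of number 17 and between 140.7 and 144.6 in the 2 mice of number 58. It was between 70.2 and 81.6 CPM in the 3 mice of number 51 and between 67.8 and 76.2 in the 2 mice of number 52. No value lay between the last 2 numbers and the other 3. In P9-ELS, the 3 mice of number 9 were between 131.4 and 157.2 CPM, the 4 mice of number 53 between 25.1 and 89.4 CPM and the 3 mice of number 55 between 68.2 and 88.1 CPM, whereas number 19 spread from 85.1 to 517.4 CPM. The P200 PBS range of 36.4 to 92.5 CPM covered that of numbers 51, 52 and 55. Gbp9 divided the P9-CTR numbers the same way, with 15.17 to 20.4 CPM in numbers 51 and 52 and 25.6 to 45.2 CPM in the other 3. Gbp3 did not, with 28.0 to 39.9 CPM in numbers 51 and 52 and 25.5 to 48.3 CPM in the other 3.

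**Figure D5:**
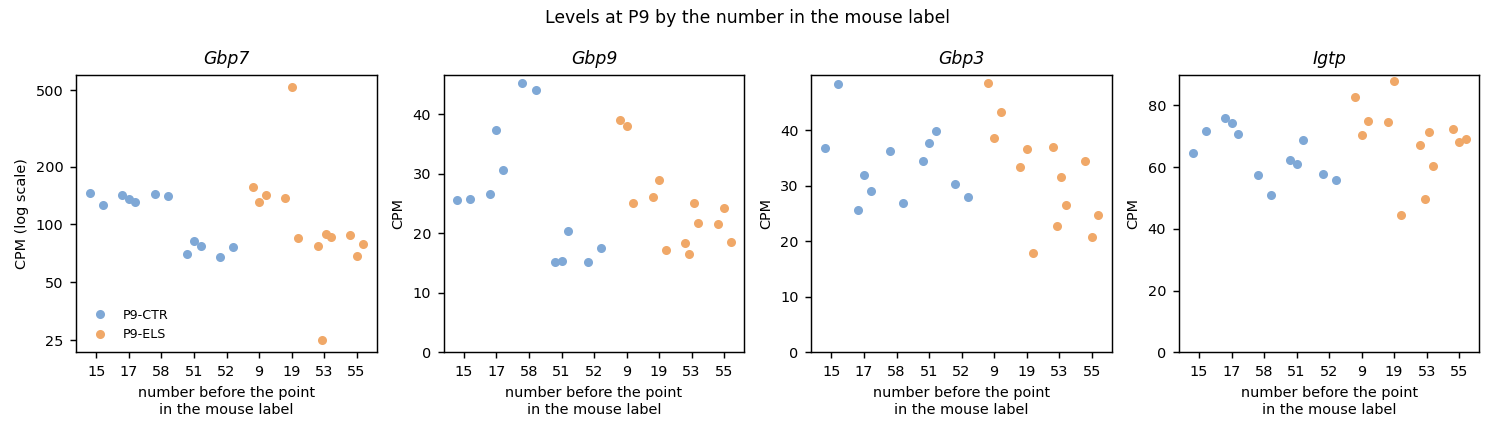
CPM of Gbp7 (log axis), Gbp9, Gbp3 and Igtp in the 25 P9 mice, arranged by the number before the point in the mouse label and coloured by condition. Gbp7 lies between 67.8 and 81.6 CPM in numbers 51 and 52 and between 126.8 and 146.0 CPM in numbers 15, 17 and 58, and Igtp shows no such gap.

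Of 20 other genes of the GTPase families found in the files, 14 were tested. With LPS, 1 was called higher and 1 lower in CTR, and 1 higher and 2 lower in ELS. Of all genes, 6.02% were called higher and 3.6% lower in CTR, and 4.69% and 3.17% in ELS. The median log2 fold change over the list was 0.21 and 0.23. The one called lower in CTR, Irgq, was not called without the 3 libraries with few genes (log2 difference -0.73 ± 0.42, adjusted p = 0.25). In ELS, Irgq had an adjusted p of 0.055 over all mice and was called lower without these libraries (-1.49 ± 0.48, adjusted p = 0.020), when 3 of the list were called lower in ELS. The one called higher in both conditions was Gm12250 (Irgb10), an effector that acts on bacterial membranes, with medians of 11.12 and 32.2 CPM in CTR-PBS and CTR-LPS mice (log2 fold change 1.31 ± 0.29, adjusted p = 0.00060) and a log2 fold change of 1.32 ± 0.32 in ELS (adjusted p = 0.0027). Irgm2, the third regulatory gene beside Irgm1 and Igtp and the neighbour that overlaps Igtp, had log2 differences of 0.17 ± 0.20 (adjusted p = 0.67) and 0.07 ± 0.23 (adjusted p = 0.89) with LPS. Between P9 and P200, Irgm2 rose like Igtp, by 1.35 ± 0.18 in both conditions (adjusted p = 1.2e-08 and 1.9e-08). Over the family list 5 were called higher and 2 lower at P200 in CTR, and 6 higher and 0 lower in ELS, where 7.98% and 18.5% of all genes were in CTR and 8.68% and 17.5% in ELS. Of the genes called higher, 3 in CTR and 4 in ELS had a mean log2 CPM under 1, and the others were Irgm2 and Gm12250. The 2 called lower in CTR were 9930111J21Rik2 (-1.48 ± 0.36, adjusted p = 0.00064) and 9930111J21Rik1 (-1.18 ± 0.36, adjusted p = 0.0070).

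The interferon genes themselves were scarce in the sorted cells, and the receptors for interferon-gamma were abundant. Ifng, the gene of type II interferon, had no count in any of the 50 mice, which allows up to 0.0028 CPM over all libraries. Ifnb1, of type I interferon, was at most 1.88 CPM in any LPS mouse and had no count in 3 of 7 CTR-LPS and 2 of 5 ELS-LPS mice. Ifngr1, the ligand-binding chain of the interferon-gamma receptor, had a median of 2527 CPM in CTR-PBS and 1991 CPM in CTR-LPS mice, and Ifngr2 medians of 358.5 and 461.7 CPM. Of 12 ligand and receptor genes tested, 3 were called higher and 0 lower with LPS in CTR, and 3 higher and 1 lower in ELS, against 6.02% and 3.6% of all genes in CTR and 4.69% and 3.17% in ELS. The 3 were the same in both conditions. Tnf, an inflammatory cytokine, had medians after LPS of 225.3 (CTR) and 277.0 CPM (ELS) and log2 fold changes of 6.5 ± 0.60 (adjusted p = 2.4e-12) and 6.59 ± 0.66 (adjusted p = 3.4e-11), and the LPS co-receptor Cd14 and the cytokine Il27 also rose. Tlr4, the LPS receptor, was the one lower in ELS (-1.32 ± 0.27, adjusted p = 0.00026) and stood at -0.96 ± 0.23 in CTR (adjusted p = 0.0020).

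Among the transcription factors upstream, 4 of 13 JAK-STAT and IRF genes tested were called higher with LPS in CTR and 6 in ELS, and 0 lower, where 6.02% of all genes were called higher in CTR and 4.69% in ELS. Irf1, the factor through which interferon-gamma induces many guanylate-binding proteins, had a median of 48.0 CPM in CTR-PBS and 243.6 CPM in CTR-LPS mice (log2 fold change 2.51 ± 0.24, adjusted p = 4.6e-12). In ELS it rose by 2.82 ± 0.27 (adjusted p = 5.4e-12). Stat2, Stat3 and Nlrc5, the activator of MHC class I genes, were called higher in both conditions. Of 8 inhibitors, 3 were called higher in each condition, beside the same shares of all genes (6.02% and 4.69%). Socs3, a feedback inhibitor of JAK kinases, showed the largest change, with medians of 19.6 and 1292 CPM in CTR (log2 fold change 6.55 ± 0.56, adjusted p = 1.5e-13).

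Other interferon targets were called in part. Of 18 type I interferon-stimulated genes tested, 2 were called higher with LPS in CTR and 5 in ELS, and 0 lower, where 6.02% and 4.69% of all genes were called higher. The median log2 fold change over the list was 0.42 and 0.91, and 0 of the 18 were called for the difference of the LPS response between ELS and CTR. Cxcl10, a chemokine of both interferon pathways, went from a median of 0.239 to 453.4 CPM in CTR, while Ifit1 had a log2 difference of 1.94 ± 0.75 (adjusted p = 0.072) in CTR and 3.25 ± 0.87 (adjusted p = 0.0073) in ELS. Of 17 other interferon-gamma targets, 3 were called higher in CTR and 6 in ELS, and 0 lower, beside the same shares, and 0 of the 17 were called for the difference of the LPS response. Cd74, the MHC class II invariant chain, rose by 2.15 ± 0.32 (adjusted p = 8.6e-07) and 2.88 ± 0.36 (adjusted p = 2.4e-08). Of 23 partner genes for prenylation, autophagy conjugation and inflammasomes, 2 were called higher in each condition, Casp4 and Nlrp3, where 6.02% of all genes were in CTR and 4.69% in ELS. Without the 3 libraries with few genes Casp4 alone was called higher in CTR. Casp4, the mouse caspase-11 that senses cytosolic LPS released with the help of guanylate-binding proteins, rose by 2.14 ± 0.32 (adjusted p = 1.0e-06) in CTR and 2.95 ± 0.37 (adjusted p = 1.7e-08) in ELS. Trim21, a cytosolic antibody receptor, was the one partner called lower, in CTR (-1.68 ± 0.57, adjusted p = 0.038), and it was not called without the 3 libraries with few genes (-0.81 ± 0.40, adjusted p = 0.16).

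The genes most like the members over the 25 P200 mice, by Pearson's r with the mean z-score of the 10 members in log2 CPM and outside the GTPase families, were Lcp2 (r = 0.916), Samsn1 (0.904), Ptprc (0.891), Tnfaip2 (0.887) and Adm (0.887). Lcp2, an adaptor of immune receptor signalling, ranked first of 16672 genes and stayed first with Spearman's correlation and with a prior count of 0.5. The other 4 ranked between 5 and 103 with Spearman's correlation. These correlations combine PBS and LPS mice and describe a shared pattern in the same libraries.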

How the data were processed

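The authors demultiplexed the reads with bcl2fastq 2.20, trimmed them with cutadapt 2.10, aligned them to GRCm39 with STAR and counted unique exonic reads with HTSeq 0.11.0, and the deposited values are raw counts per gene and mouse. The annotation release and the strand setting are not given in the sources used here. From these counts, genes were kept that reached 1 CPM in over 2 mice, scaled by TMM and fitted with 6 group means over all 50 mice in edgeR 4.0.16 (R 4.3.3). Quasi-likelihood tests were adjusted by Benjamini-Hochberg over the 16696 genes. SE is the log2 fold change divided by the root of F, and intervals are 1.96 SE on either side, about 95%. The values of log2 CPM used a prior count of 2. All members were to be named in the comparisons the text turns on, but in the stress comparisons most are given as counts and ranges. Named from each list were at most 4 genes with the largest changes and a mean log2 CPM of at least 1, plus genes a result turned on. Members and lists were chosen with earlier results of these data known. Promoters were read from GRCm39 at GENCODE canonical starts. Alternatives included DESeq2 1.42.0 and limma 3.58.1, other filters and scaling, and leaving out each mouse. The scripts were tested on simulated data. Counting intervals and floors cover counting error only.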

Additional observations from a re-analysis of the deposited data

Results flagged for a closer look

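For each of the 10 members, groups of 5 to 7 mice were searched for a highest or lowest mouse far from the others. Of 39 groups, 5 held one, where chance gives about 1 in 20 for independent groups of normally distributed values. The groups here share libraries and some hold mostly 0 counts, so that rate does not strictly apply. In CTR-PBS mice, Gbp2 had no count in mouse 1.1 (0 CPM), while the nearest mouse had 7.84 CPM. In the same group Gbp3 was highest in mouse 1.1, at 38.5 CPM, with the next mouse at 22.3 CPM. Mouse 1.1 is one of the 3 libraries with few genes detected. Gbp7 was highest in CTR-PBS mouse 8.1, at 92.5 CPM, where the next mouse had 55.6 CPM. Gbp8 reached 0.619 CPM in CTR-LPS mouse 8.2, from 11 counts, and was at 0 in the other mice of the group. Gbp9 was lowest in the ELS-LPS mouse of number 11, at 10.9 CPM, and the nearest mouse had 24.2 CPM.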

How the results depend on the processing

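With LPS, 5 members were called in CTR under all 11 other settings and 4 to 6 when each mouse was left out, and 5 to 6 and 5 in ELS. Between P9 and P200, 2 members were called in CTR, against 4 by adjusted p alone, 2 to 4 over 10 settings and 1 to 2 with each mouse left out. In ELS 1 was called, against 3 by adjusted p alone, 0 in limma voom with the nest number as a random effect, 0 without the 3 libraries with few genes (a setting chosen after seeing the data), and 0 to 1 with each mouse left out. In the other 5 comparisons 0 members were called under every setting run. None of the 13 called gene comparisons changed sign, and 119 values of genes not called did, over 5421 values of gene, comparison and setting. With a replicate block (the nest number, P200 mice alone), 5 members were called in CTR, 6 in ELS and 0 for the difference. Iigp1 was the added gene in ELS (adjusted p = 0.041, and 0.011 in limma voom). Correlations of deviations between PBS and LPS mice of one number ran from -0.041 to 0.084, so the numbers were not taken to pair the mice. Low counts limit the values of Gbp4, Gbp8 and Iigp1, and the cause of the low counts was not tested.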
